A study of Homo sapiens with 6 samples.

Results

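The genes described here are the parts of the cellular oxygen sensor. They comprise the 3 hypoxia-inducible factor (HIF) alpha subunits HIF1A, EPAS1 (HIF-2 alpha) and HIF3A, their common partner ARNT (HIF-1 beta), the prolyl hydroxylases EGLN1, EGLN2 and EGLN3, the asparaginyl hydroxylase HIF1AN and the ubiquitin ligase receptor VHL. Members were rows of the count table with exactly these gene symbols, which gave 9 of the 59653 genes listed, and all 9 passed the filter on low values. RNA was sequenced from SK-OV3, an established human ovarian cancer cell line labelled wild type, in 2 groups of 3 libraries taken 48 h after transfection. The siPVT1 group had received a pool of siRNAs against PVT1, a long non-coding RNA gene, and the siControl group a non-targeting pool. The comparison asks which transcripts differ when PVT1 is silenced in this line. It rests on 1 cell line and 1 siRNA pool, and the labels do not say whether the replicates of a group came from separate cultures, so p-values measure the spread between these libraries, which may be technical.

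In oxygen-replete cells, EGLN enzymes hydroxylate prolines of the HIF alpha subunits, VHL binds the hydroxylated protein, and the VHL ligase marks it for degradation. HIF1AN hydroxylates an asparagine near the carboxyl end of HIF alpha, which blocks the recruitment of coactivators. When these oxygen-dependent enzymes slow down, HIF alpha pairs with ARNT and binds DNA at RCGTG motifs, and EGLN1 and EGLN3 are among the genes that HIF is known to induce. Much of this control acts on protein, which RNA sequencing does not measure.

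RefSeq promoter windows (GRCh38.p14, 250 bases before to 50 after each start site) were held for 8 members, in 12 windows. The motif cores ACGTG and GCGTG were searched on both strands. An ACGTG match can lie within an E-box, CACGTG, which other factors bind. One of these cores was present in 5 of the 12 windows (41.7%), against 48.4% of all 35116 windows in the table, so their presence does not set these genes apart. The 250 bases before the start are printed for the 4 windows that held a core and no annotated exon, 5′ to 3′ on the strand of the gene, with the matches in capitals. They are shown to give the sequence before a listed start site of each of 3 alpha subunit genes and of EGLN1. A match is a description of letters and not of binding.
HIF3A: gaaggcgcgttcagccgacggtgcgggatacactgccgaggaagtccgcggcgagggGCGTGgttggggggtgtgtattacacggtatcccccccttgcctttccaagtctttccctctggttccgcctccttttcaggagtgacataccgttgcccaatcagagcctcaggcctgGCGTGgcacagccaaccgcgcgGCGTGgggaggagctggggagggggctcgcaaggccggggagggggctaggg
EPAS1: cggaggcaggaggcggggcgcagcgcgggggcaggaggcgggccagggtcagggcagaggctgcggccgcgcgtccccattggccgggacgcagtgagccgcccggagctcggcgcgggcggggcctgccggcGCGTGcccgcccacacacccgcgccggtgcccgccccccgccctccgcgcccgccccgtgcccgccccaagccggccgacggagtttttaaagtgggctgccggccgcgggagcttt
HIF1A: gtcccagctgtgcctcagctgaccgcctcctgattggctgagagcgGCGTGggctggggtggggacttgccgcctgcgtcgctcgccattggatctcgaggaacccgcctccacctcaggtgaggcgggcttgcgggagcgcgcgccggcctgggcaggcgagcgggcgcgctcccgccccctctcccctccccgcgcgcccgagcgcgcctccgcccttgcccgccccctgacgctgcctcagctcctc
EGLN1: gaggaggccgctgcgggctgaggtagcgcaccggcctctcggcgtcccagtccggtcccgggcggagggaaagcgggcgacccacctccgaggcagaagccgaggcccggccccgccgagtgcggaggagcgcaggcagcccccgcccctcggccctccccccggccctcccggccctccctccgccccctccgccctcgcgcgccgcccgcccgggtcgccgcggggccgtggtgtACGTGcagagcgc

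HIF3A, HIF1A and EGLN2 each had more than 1 window, at different start sites, and their other windows held neither core. Gene counts do not show which start site was used. The printed window of HIF3A lay at chr19:46296792-46297041 (plus strand). It held 3 GCGTG matches, whose first bases were at -193, -74 and -52 relative to the start site. That of EPAS1 lay at chr2:46297157-46297406 (plus strand), inside the annotated span of the gene, and held 1 GCGTG match at -117. The printed HIF1A window lay at chr14:61695263-61695512 (plus strand), with 1 GCGTG match at -204. EGLN1 had 1 ACGTG match at -13, in a window at chr1:231422288-231422537 (minus strand). In 1 EGLN2 window, not printed, an E-box gave an ACGTG match on both strands. The window of EGLN3, the prolyl hydroxylase with the largest difference described here, held neither core. GCGTG alone was found in 36.5% of all windows and ACGTG alone in 21.4%.

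PVT1, the targeted gene, was measured at 3298, 4090.5 and 3377 normalized counts in the siControl libraries and at 2349.7, 2111 and 2062 in the siPVT1 libraries. A normalized count is a count scaled to a common library size. Every siPVT1 library lay below every siControl library, with a fall of 0.72 on the log2 scale (SE 0.097; adjusted p = 0.00034). Every adjusted p given here is from edgeR's quasi-likelihood test, adjusted by the method of Benjamini and Hochberg. Total counts were 28383171 to 35059576 per library, and the siPVT1 libraries differed more from one another than the siControl libraries did, with pairwise chi-square values over their degrees of freedom of 8.62 to 45.3 against 1.75 to 5.67. Of 19008 genes tested, 21.5% passed both thresholds, which were an adjusted p under 0.05 and a change of at least 2-fold. By direction, 11.8% were higher in siPVT1 and 9.64% lower. The higher genes made up 55.1% of these calls, and 43.8% where libraries were scaled by the total count. By adjusted p alone 57.9% were called, 29.5% higher and 28.4% lower, and in 65.6% the groups did not overlap. All 10 markers listed for the line were tested, with 2 called higher (MSLN at 2.94 and KRT19 at 2.30 on the log2 scale) and 1 lower (WT1 at -1.01) by both thresholds. KRT7, KRT8, KRT18, PAX8 and ERBB2 had 896 normalized counts or more in every library, EPCAM had 41.3 to 127, and MUC16 ran from 17.9 to 635 within siPVT1.

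Read against those shares, 2 of the 9 members passed both thresholds, HIF3A and EGLN3, and both were higher in siPVT1. This is near the 21.5% of all tested genes. By adjusted p alone 7 members were called. HIF1A, HIF3A, ARNT, EGLN1, EGLN3 and VHL were higher and EPAS1 was lower, while EGLN2 and HIF1AN were not called. The groups did not overlap in 8 members, the exception being HIF1AN. The members' median log2 fold change was 0.46, against 0.0014 over all tested genes. Members were chosen with earlier results of these data known, so these counts and this median are a description and not a test. In bulk RNA, a change in RNA per cell and a change in the share of cells that make it cannot be told apart.

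**Figure D1:**
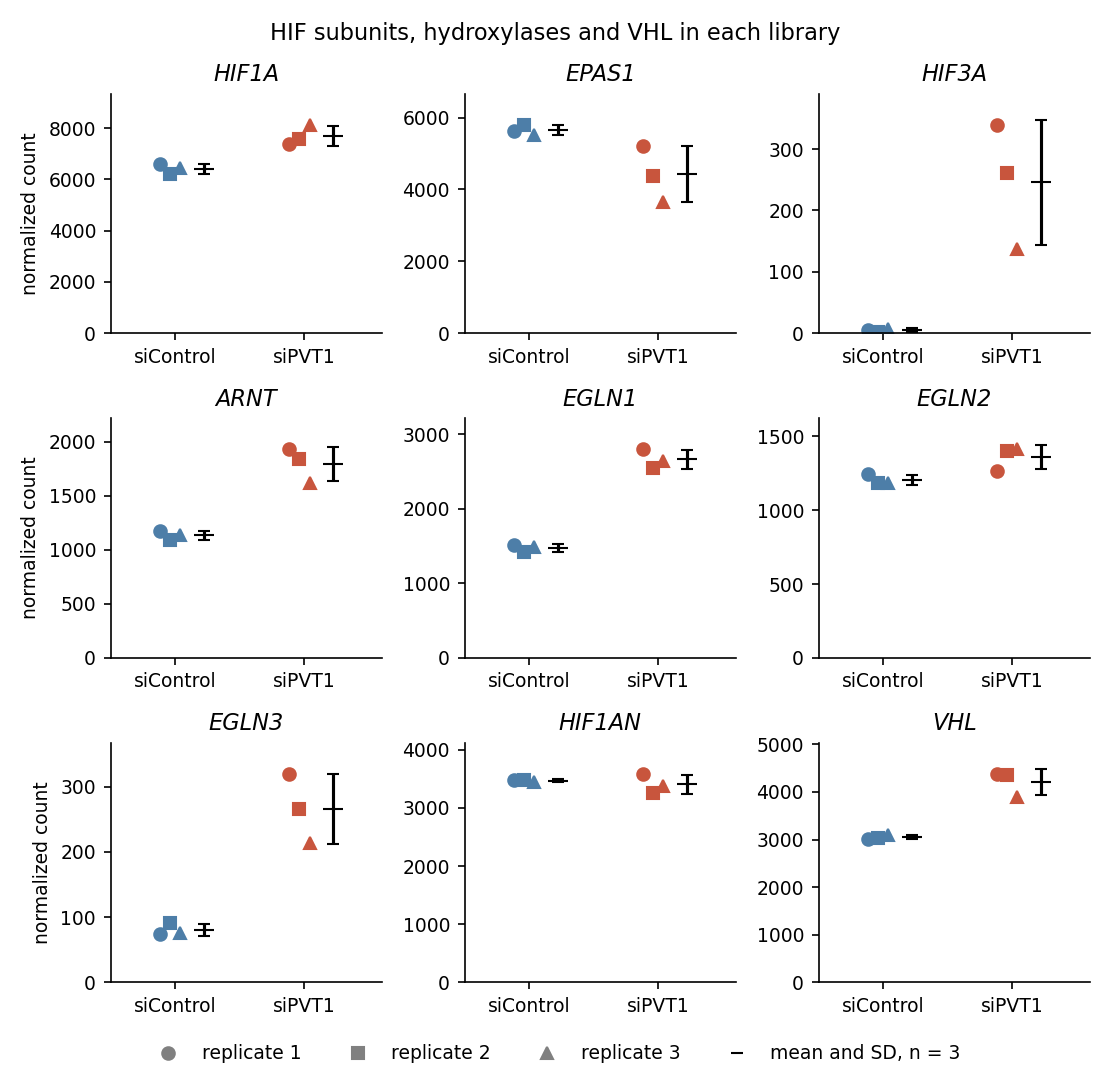
Normalized counts (vertical axes, from 0, a separate scale per gene) of the 9 genes in each library, with siControl in blue and siPVT1 in red, marker shapes for replicates 1 to 3, and black bars for the mean and SD of 3 libraries. HIF3A rises from under 8 to above 137, EGLN3 from under 91 to above 213, and the HIF1AN points of the 2 groups overlap.

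HIF3A encodes the third alpha subunit, several isoforms of which lack a full transactivation domain and can restrain the other subunits. Its raw counts were 6, 2 and 8 in siControl and 305, 239 and 146 in siPVT1. After normalization these were 5.71, 2.02 and 7.39 against 339.6, 261 and 137, so even the lowest siPVT1 library stood far above the highest siControl library. The mean went from 5.04 ± 2.75 to 246 ± 102 (SD, n = 3 each), a fold of 48.8. The lowest siPVT1 library was 18.6 times the highest siControl library. On the log2 scale the fitted difference was 5.55 (SE 0.48, 95% interval 4.45 to 6.65; adjusted p = 3.35e-05, edgeR). The filter on low values asked for at least 5 normalized counts in 3 libraries, which HIF3A reached in siControl replicates 1 and 3 but not 2. It thus needed at least 1 library of siPVT1, the group where it was high, to be tested. The siControl counts are few, and exact Poisson intervals for counting error alone ran from 0.242 to 7.22 for the library with 2 counts and from 3.45 to 15.8 for that with 8. HIF3A lies at chr19:46297042-46343433 on the plus strand, with 19 annotated transcripts, and gene counts do not show which isoform was made.

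HIF1A, the alpha subunit found in most tissues, was measured at 6589, 6212 and 6427 normalized counts in siControl and at 7374, 7555.5 and 8126 in siPVT1. All siPVT1 libraries were above all siControl libraries. The mean rose by 19.9%, from 6409 ± 189 to 7685 ± 392 (SD, n = 3), with a log2 fold change of 0.26 (SE 0.06, 95% interval 0.12 to 0.40; edgeR adjusted p = 0.0060). Scaling by the total count instead lowered this to 0.11 with an adjusted p of 0.104, and moved the median of all genes to -0.15. HIF1A spans chr14:61695513-61748259 (plus strand), and its exons overlap those of 2 antisense long non-coding genes of the table, HIF1A-AS3 and HIF1A-AS1. HIF1A-AS3 had 467, 405 and 456 counts in siControl and 221, 181 and 215 in siPVT1, and it fell by 0.98 on the log2 scale (SE 0.11; edgeR adjusted p = 0.00012). Per 100 HIF1A counts there were 6.63 ± 0.10 HIF1A-AS3 counts in siControl and 2.81 ± 0.46 in siPVT1 (SD, n = 3). By the fitted changes above, the antisense partner was lower and the sense gene higher, the latter not called under scaling by the total count. HIF1A-AS1 had 1 to 5 counts in all libraries but siPVT1 replicate 2, which had 0. Whether reads were assigned by strand is not given in the sources used here, and without strand the 2 genes' reads in shared exons could not be told apart.

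EPAS1, the alpha subunit known for endothelial cells and for the control of erythropoietin and iron genes, was the only member called lower. Its normalized counts were 5614, 5799 and 5521 in siControl and 5219.5, 4373 and 3663 in siPVT1. The groups did not overlap, although siPVT1 replicate 1 was close to the siControl libraries and replicate 3 was far below them. The mean fell from 5645 ± 141 to 4418 ± 779 (SD, n = 3), a log2 fold change of -0.35 (SE 0.12, 95% interval -0.62 to -0.087; edgeR adjusted p = 0.029). Leaving out any 1 siControl library, or siPVT1 replicate 2, took the adjusted p to between 0.062 and 0.090. Without siPVT1 replicate 1 the log2 fold change was -0.51, and without replicate 3 it was -0.25, both still called. EPAS1 lies at chr2:46293667-46386697 on the plus strand.

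Counts per kb of merged exons were used to compare levels between genes. The 3 alpha subunits summed to 2019 ± 26.7 normalized counts per kb in siControl and to 2127 ± 52.6 in siPVT1 (SD, n = 3). HIF1A took 62.4%, 60.3% and 62.2% of this sum in siControl and 65.4%, 69.9% and 75.3% in siPVT1. The EPAS1 share was 37.6%, 39.7% and 37.8% in siControl and 32.7%, 28.6% and 23.96% in siPVT1. HIF3A took 0.0298% ± 0.0163 in siControl and 1.37% ± 0.54 in siPVT1, so with its large fold it was still the least abundant alpha subunit in every library. The raw count of EPAS1 per count of HIF1A, which needs no scaling between libraries, was 0.852, 0.933 and 0.859 in siControl and 0.708, 0.579 and 0.451 in siPVT1. The balance of the alpha subunit transcripts thus leaned further to HIF1A in every siPVT1 library.

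**Figure D2:**
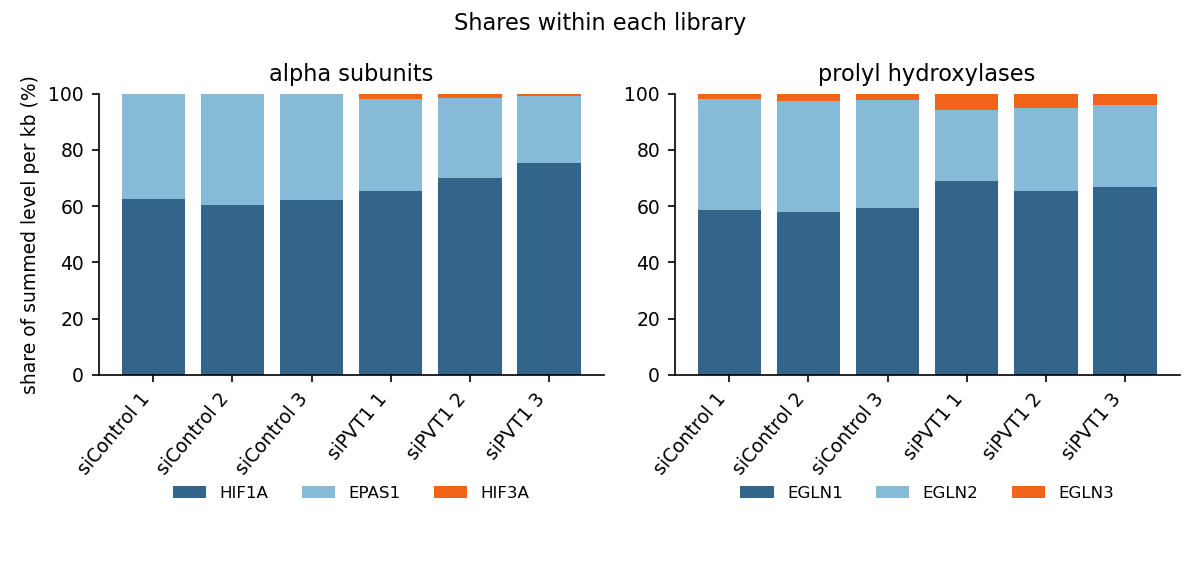
Stacked bars give the share (%) of the summed level per kb of merged exons in each library, for the alpha subunits HIF1A, EPAS1 and HIF3A (left) and for EGLN1, EGLN2 and EGLN3 (right). HIF1A goes from 60.3% to 62.4% in siControl to 65.4% to 75.3% in siPVT1, and EGLN1 from 57.8% to 59.2% to 65.5% to 68.8%.

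ARNT, with which every HIF alpha subunit pairs to bind DNA, was measured at 1178, 1091 and 1137 normalized counts in siControl and at 1931, 1839 and 1623 in siPVT1. The lowest siPVT1 library was well above the highest siControl library. The rise was 58.3%, or 0.66 on the log2 scale (SE 0.080, 95% interval 0.48 to 0.85; edgeR adjusted p = 0.00020), which passed the adjusted p but not the 2-fold threshold. ARNT lies on the minus strand at chr1:150809713-150876708.

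EGLN1 (PHD2), the main prolyl hydroxylase of HIF alpha in oxygenated cells, had 1517, 1420.4 and 1485 normalized counts in siControl against 2799.6, 2545 and 2648 in siPVT1. The groups were far apart and tight. The fold was 1.81, a log2 difference of 0.85 (SE 0.064, 95% interval 0.71 to 1.0002; edgeR adjusted p = 1.63e-05), just under the fold threshold. EGLN1 lies at chr1:231363751-231422287 (minus strand).

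EGLN3 (PHD3), a prolyl hydroxylase whose RNA is known to rise strongly in hypoxia, was the scarcest of the EGLN genes in all libraries. Its normalized counts were 74.3, 90.9 and 75.7 in siControl and 319.6, 266 and 213 in siPVT1, from raw counts of 78, 90 and 82 against 287, 243 and 227. The groups did not overlap, and siPVT1 replicate 1 was the highest. The mean rose 3.31-fold, with a log2 fold change of 1.73 (SE 0.17, 95% interval 1.33 to 2.12; edgeR adjusted p = 6.98e-05). Tested directly against a 2-fold change, the adjusted p was 0.0052 for EGLN3 and 0.00023 for HIF3A (edgeR), and 1 for each other member. The annotated EGLN3 locus, chr14:33924227-34462774 on the minus strand, spans SPTSSA, whose exons it does not share, and EGLN3-AS1, which is listed at 0 in all libraries.

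EGLN2 (PHD1), the third prolyl hydroxylase, had 1246.5, 1187 and 1182 normalized counts in siControl and 1264, 1399 and 1412 in siPVT1. The groups did not overlap, but siPVT1 replicate 1 exceeded the highest siControl library only slightly. The log2 difference was 0.17 (SE 0.069, 95% interval 0.013 to 0.33), and the edgeR adjusted p of 0.062 missed the threshold. It passed only without siPVT1 replicate 1, with a log2 fold change of 0.21 and an adjusted p of 0.020. Scaling by the total count lowered the log2 fold change to 0.023, with an adjusted p of 0.785. EGLN2 (chr19:40798996-40808434, plus strand) shares exons with the readthrough gene RAB4B-EGLN2, which had 0 to 10 counts per library.

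Together the EGLN genes summed to 468 ± 12.5 normalized counts per kb in siControl and to 738 ± 17.2 in siPVT1 (SD, n = 3). The EGLN1 share was 58.5% ± 0.72 in siControl and 67.1% ± 1.66 in siPVT1, that of EGLN2 39.2% ± 0.51 and 28.0% ± 2.26, and that of EGLN3 2.33% ± 0.32 and 4.89% ± 0.91. Which EGLN gene leads depends on the length used. With the canonical transcript, which is 2100 bases for EGLN2 against 6574 bases of merged exons, EGLN2 held 60.8% ± 0.45 in siControl and 47.6% ± 3.04 in siPVT1, and EGLN1 36.0% ± 0.67 and 45.2% ± 1.94. The EGLN3 share was 3.15% ± 0.42 and 7.23% ± 1.43 with that length, so its rise was 4.08 percentage points against 2.56 with merged exons, and 4.66 with the longest transcript. The shift from EGLN2 towards EGLN1 and EGLN3 was present with either length. Raw counts of EGLN1 per count of EGLN2 were 1.22, 1.20 and 1.26 in siControl and 2.22, 1.82 and 1.87 in siPVT1.

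HIF1AN (factor inhibiting HIF), the asparaginyl hydroxylase, was the only member whose groups overlapped. Its normalized counts were 3479.7, 3484 and 3437 in siControl and 3580.3, 3257 and 3368.5 in siPVT1, and the siPVT1 libraries lay on both sides of the siControl range. The log2 difference was -0.027 (SE 0.058), with a 95% interval of -0.16 to 0.11 and an edgeR adjusted p of 0.714. Under scaling by the total count it was -0.18 with an adjusted p of 0.026, which is close to the shift of -0.15 in the median of all genes. HIF1AN lies at chr10:100529072-100559998 (plus strand) and shares exonic bases with NDUFB8 on the opposite strand, a respiratory chain subunit that rose by 0.30 on the log2 scale (SE 0.075; edgeR adjusted p = 0.0086).

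VHL, the receptor that recognises hydroxylated HIF alpha, had 3019.7, 3036 and 3092 normalized counts in siControl and 4376.5, 4364 and 3884 in siPVT1. All siPVT1 libraries were higher. The increase was 38.0%, a log2 fold change of 0.46 (SE 0.065, 95% interval 0.31 to 0.61; edgeR adjusted p = 0.00044). VHL lies on the plus strand at chr3:10141778-10153667.

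**Figure D3:**
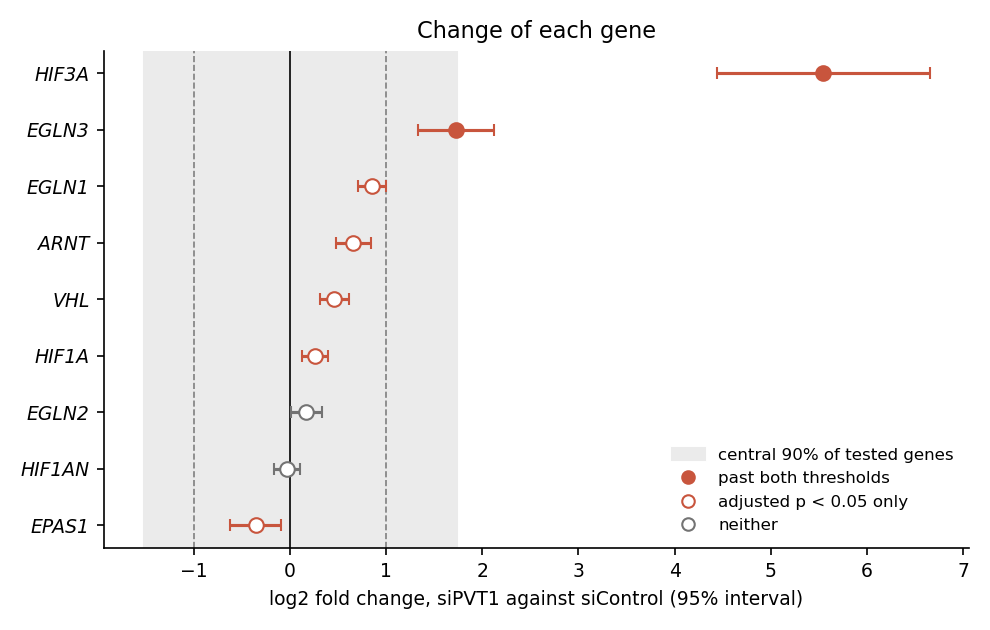
Points give the log2 fold change of siPVT1 against siControl with its 95% interval for the 9 genes, filled where both thresholds were passed, open red where only the adjusted p was, and grey where neither was. The dashed lines mark a 2-fold change and the grey band the central 90% of tested genes, from -1.52 to 1.74. HIF3A at 5.55 is outside the band, EGLN3 at 1.73 is just inside its upper edge, and EPAS1 at -0.35 is the lowest.

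An exact two-sided permutation test of normalized counts, 3 libraries against 3, gave 0.1 for the 8 members whose groups did not overlap, which is the smallest p that this design allows, and 0.6 for HIF1AN. All 9 members had the same sign in 12 of 12 alternative settings. HIF3A and EGLN3 passed both thresholds in each of them, with log2 fold changes of 5.20 to 5.92 for HIF3A and 1.56 to 1.85 for EGLN3. ARNT, EGLN1 and VHL kept an adjusted p under 0.05 throughout.

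Ordered by level per kb of merged exons, the siControl libraries gave HIF1A (1244), EPAS1 (774), VHL (609.7), EGLN1 (274), HIF1AN (249.5), EGLN2 (183), ARNT (176), EGLN3 (10.9) and HIF3A (0.602), as mean normalized counts per kb. Only EGLN2 and ARNT overlapped as neighbours in this order. In siPVT1 the order was HIF1A (1492), VHL (841), EPAS1 (606), EGLN1 (495), ARNT (279), HIF1AN (245), EGLN2 (207), EGLN3 (36.1) and HIF3A (29.4). There the neighbours EPAS1 and EGLN1, ARNT and HIF1AN, and EGLN3 and HIF3A overlapped. VHL stood above EPAS1 in siPVT1 and below it in siControl, ARNT stood above EGLN2, and HIF3A reached the range of EGLN3. With the canonical transcript length, VHL and EPAS1 overlapped in siPVT1 and EGLN3 and HIF3A did not. With that length EGLN2 stood above ARNT in both groups, at 574 against 241 in siControl and 647 against 382 in siPVT1. HIF3A was below EGLN3 within every library with both lengths.

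**Figure D4:**
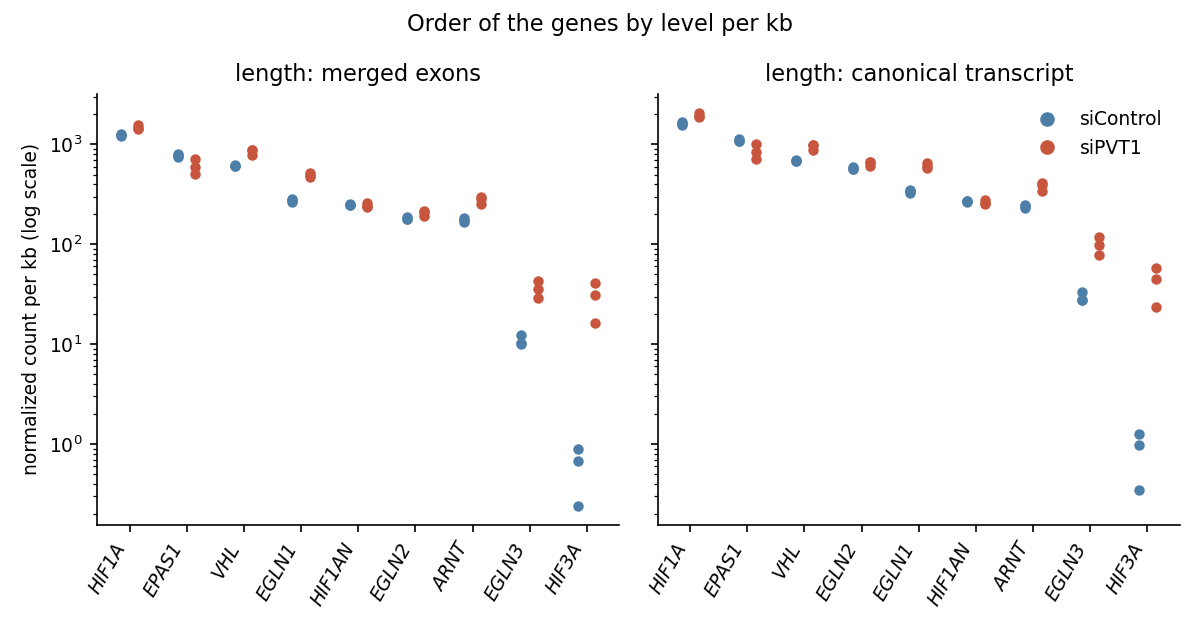
Normalized counts per kb (log scale) of the 9 genes in each library, ordered by their siControl level, with length taken from merged exons (left) or from the canonical transcript (right). HIF1A is highest and EGLN3 and HIF3A are lowest with both lengths, while EGLN2 moves up from 183 to 574 in siControl with the canonical transcript.

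The siPVT1 libraries were not alike for these genes. Replicate 1 was the highest of the 3 for 7 of the 9 members, and for 5 of them, EPAS1, HIF3A, ARNT, EGLN3 and VHL, replicate 3 was also the lowest. HIF1A and EGLN2 went the other way, with replicate 3 the highest and replicate 1 the lowest. The order from replicate 1 down to replicate 3 was also seen in 17 of the 21 HIF target genes called higher and in 50.8% of the 2248 genes called higher in all, but in 13.7% of the 1833 genes called lower. PVT1 itself was highest in replicate 1 and lowest in replicate 3. The coefficient of variation of the members was 0.750% to 11.5% in siControl, apart from HIF3A at 54.5%, and 4.81% to 41.5% in siPVT1.

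For the genes past both thresholds, the most similar profiles were sought among 12029 tested genes with a mean of at least 100 normalized counts, by Pearson's r of log2 counts scaled by library size over the 6 libraries. HIF3A was closest to TFPI2 (r = 0.9998), CRAT (0.9997) and QARS1 (0.9994), and EGLN3 to ANO1 (0.9996), PTPN14 (0.9991) and TCP11L2 (0.9990). The difference between groups sets most of these values, and 547 genes had r above 0.99 with HIF3A and 392 with EGLN3. The size of the change was not alike, since TFPI2 differed by 0.82 and QARS1 by 0.34 on the log2 scale against 5.55 for HIF3A.

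Of the other parts of the VHL ligase, none of the 5 tested passed both thresholds, against 21.5% of all tested genes. Their median log2 fold change was 0.17. RBX1, the RING subunit, rose by 0.51 (SE 0.084; edgeR adjusted p = 0.0010) and NEDD8, which modifies the cullin, rose by 0.40 (SE 0.083; adjusted p = 0.0038). CUL2, the scaffold, fell by 0.32 (SE 0.074; edgeR adjusted p = 0.0062). The adaptors ELOB and ELOC differed by 0.17 and -0.094, with adjusted p of 0.104 and 0.525.

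Among 17 genes that modify HIF alpha or act as its coactivators, 2 passed both thresholds, both lower, and the median was 0.24. Of all tested genes, 21.5% passed both thresholds in either direction, and 9.64% of all tested genes passed them as lower. CREBBP, a histone acetyltransferase and HIF coactivator, went from 3527 to 3739 normalized counts in siControl to 1628 to 2013 in siPVT1 (log2 fold change -1.0007, SE 0.083; edgeR adjusted p = 2.77e-05). HSP90AB1, a chaperone that binds HIF alpha, fell by 1.03 (SE 0.10; adjusted p = 6.77e-05). By adjusted p alone 8 were higher and 5 lower, beside 29.5% and 28.4% of all tested genes. Both calls sat at the 2-fold threshold and the count was 0 to 2 when single libraries were left out.

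Of the HIF relatives in the bHLH-PAS family, 11 of 12 were tested and 1 passed both thresholds, against 21.5% of all tested genes. The gene called was NPAS1, at under 13 normalized counts in every library, lower by 1.87 (SE 0.46; edgeR adjusted p = 0.0084). NPAS1 passed the filter on low values only through the siControl libraries, where it was high. DESeq2 and a stricter filter gave no call in this list. By adjusted p alone 3 were higher and 4 lower, beside 29.5% and 28.4% of all tested genes. The median of the list was 0.012, and NPAS4 had 0 to 2 counts. HIF1A-AS3 was the only antisense partner with enough counts to be tested.

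Genes known as HIF targets, listed with earlier results of these data known, were mostly higher. Of 24 tested, 21 passed both thresholds as higher and 23 had an adjusted p under 0.05 as higher, with a median log2 fold change of 2.12. Over all tested genes the 2 shares were 11.8% and 29.5%. CA9, a carbonic anhydrase that is among the most hypoxia-specific targets, had 1 count in each siControl library and 30, 37 and 19 in siPVT1. Against a floor of 3 counts per siControl library this was at least 10.6-fold higher. CA9, which is among the called targets, passed the filter on low values only through the siPVT1 libraries, so a difference was built into its being tested. ANGPTL4, a secreted regulator of lipoprotein lipase, was higher by 3.89 (SE 0.25; edgeR adjusted p = 8.40e-06). The smallest of the called changes were those of TMEM45A at 1.01 (SE 0.13; adjusted p = 0.00024) and of the glycolytic regulator PFKFB3 at 1.13 (SE 0.062; adjusted p = 3.98e-06). The 3 genes not past both thresholds, named after their values were seen, were the glycolytic enzymes ENO1 (0.83) and ALDOA (0.81), both with an adjusted p under 0.05, and STC2 (-0.14, edgeR adjusted p = 0.103).

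Of 8 genes linked to EPAS1, 7 were tested, 2 passed both thresholds as higher and 5 had an adjusted p under 0.05 as higher. Over all tested genes the 2 shares were 11.8% and 29.5%. The list's median was 0.49, while EPAS1 itself was lower. TGFA, an EGF receptor ligand, was higher by 1.40 (SE 0.26; edgeR adjusted p = 0.0020) and CYBRD1, a ferric reductase, by 1.36 (SE 0.075; adjusted p = 4.06e-06). EPO, which encodes erythropoietin, was listed at 0 in all libraries. Since EPAS1 is known for endothelial cells, markers of these were read beside it. Of 7 tested, 4 passed both thresholds as higher and 6 had an adjusted p under 0.05 as higher, beside 11.8% and 29.5% of all tested genes. The summed normalized counts of these markers were 10534 to 10741 in siControl and 21974 to 25975 in siPVT1, with none of the 7 at 0. Most of that sum in siControl came from TIE1, ROBO4 and CDH5. Fibroblast markers summed to 217 to 229 against 806 to 859. Of 4 tested, 3 passed both thresholds as higher, against 11.8% of all tested genes. They were COL1A1 at 2.15, PDGFRB at 1.81 and PDGFRA at 2.11 on the log2 scale. LUM, the other gene tested, went the other way at -1.15 (SE 0.60; edgeR adjusted p = 0.132) and was not called. PDGFRA had 0 to 9.09 normalized counts in siControl and needed the siPVT1 libraries to pass the filter on low values. COL3A1 and DCN had 0 to 3 counts. Blood cell markers summed to 196 to 197 against 9.83 to 16.0. Both of those tested, ITGAM and CD14, passed both thresholds as lower, against 9.64% of all tested genes. CD14 passed the filter on low values only through the siControl libraries, where it was high, so a difference was built into its being tested. Nearly all of the blood marker sum was ITGAM, at 187 to 188 normalized counts in siControl and 7.65 to 13.2 in siPVT1 (log2 fold change -4.06). CD14 had under 10 in every library (-1.42), and the defining genes PTPRC, CD3E and HBB had 0 to 2 counts. The part of these marker genes in the values of EPAS1 and HIF3A was not tested.

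**Figure D5:**
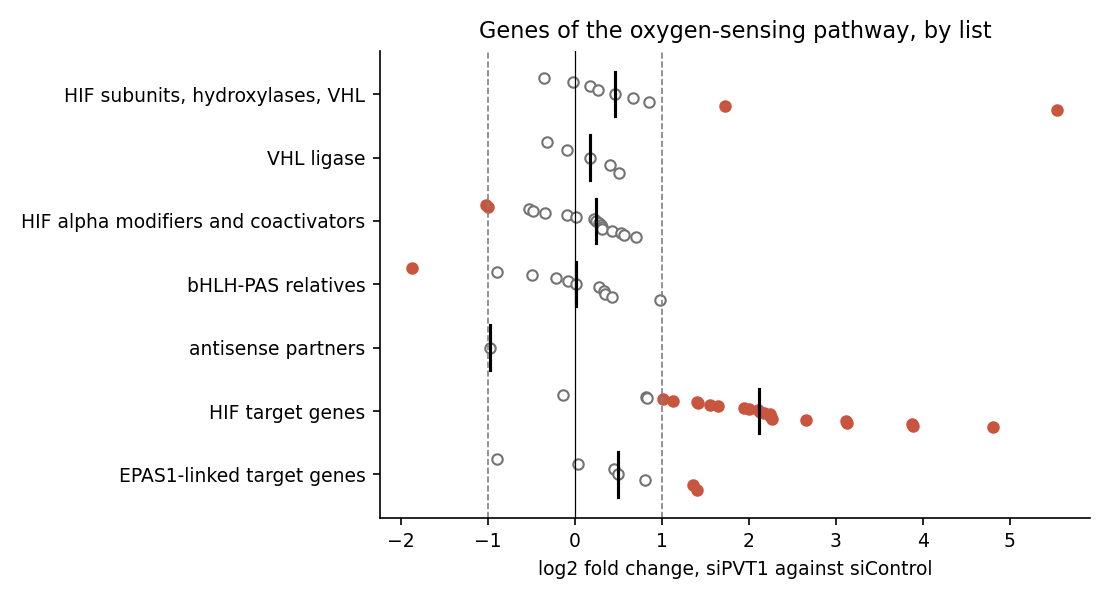
Log2 fold changes (horizontal axis) of the tested genes of each list, filled red where both thresholds were passed and open grey where not, with a black line at the list's median and dashed lines at a 2-fold change. The HIF targets have a median of 2.12, while the 4 other pathway lists shown with more than 1 tested gene have medians of 0.17 (VHL ligase), 0.24 (modifiers and coactivators), 0.012 (bHLH-PAS relatives) and 0.49 (EPAS1-linked).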

How the data were processed

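RNA from 3 siControl and 3 siPVT1 libraries was prepared with a poly(A) mRNA kit. The authors deposited estimated counts per gene, given as whole numbers, made per the labels' processing notes with STAR 2.7.3a and Salmon 0.14.1 on GRCh38; the strand setting is not given in the sources used here. Groups came from the sample titles. Genes with at least 5 normalized counts in 3 libraries were kept. TMM scaling and the quasi-likelihood test of edgeR 4.0.16 (R 4.3.3) were run on all 6 libraries without covariates, with Benjamini-Hochberg adjustment over the 19008 genes kept. The procedure was tested on simulated data. Alternatives were DESeq2 1.42.0, other scalings and filters, a test against a 2-fold change, a replicate block and each library left out. Exon lengths, gene positions and overlaps came from GENCODE 44, promoters from RefSeq. Named genes were the 9 members, PVT1, overlapping genes, the 3 most similar profiles, whole lists of up to 5 genes, otherwise the 2 highest and 2 lowest past both thresholds, and listed genes at 3 counts or fewer throughout. Members and lists were chosen with earlier results of these data known. HIF1A-AS2 was not matched in the table. A listed marker gene is not reported here.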

Additional observations from a re-analysis of the deposited data

How the results depend on the processing

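The direction of all 9 members held in 12 of 12 alternatives, and 101 of 108 recomputed member values stayed on their side of the adjusted p threshold. The others were EPAS1 without single libraries, HIF1A and HIF1AN under total-count scaling and EGLN2 without siPVT1 replicate 1, as given above. Between 3507 and 4239 genes passed both thresholds when 1 library was left out, and 1976 in the test against a 2-fold change, which asks for more, against 4081. Total-count scaling called 1835 genes higher, 43.8% of its calls against 55.1%. For the bHLH-PAS relatives, DESeq2 and filterByExpr gave 0 calls, total-count scaling 2 and leaving out single libraries 0 to 2, against 1. The modifiers and coactivators gave 0 to 2 calls with single libraries left out, against 2. For the antisense partners, total-count scaling gave 1 call and leaving out single libraries 0 to 1, against 0. The cause of these shifts was not tested. The share of HIF3A rose by 1.93 percentage points with counts not divided by length, against 1.34. That of EGLN2 changed by -13.2 points with the canonical transcript length, chosen after seeing the data, against -11.1. That of EGLN3 rose by 3.28 points without length, 4.66 with the longest transcript and 4.08 with the canonical one, against 2.56.

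With the replicate number as a block, 3924 genes and 2 members passed both thresholds and 7 members passed by adjusted p, so that no member's call changed under this replicate block. Same-numbered libraries did not deviate together (r = -0.041, 0.038 and 0.0037), so the numbers were not taken to pair the libraries. The few counts of HIF3A in siControl limit the precision of its fold.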
